A study of Mus musculus with 4 samples.

Results

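Integrins are the cell-surface receptors by which cells hold on to extracellular matrix, and laminins are the main adhesive proteins of basement membranes. Of 32285 mouse genes counted in these libraries, 39 are described here: every gene whose symbol names an integrin alpha chain (18 genes), an integrin beta chain (8), a laminin alpha (5), beta (3) or gamma (3) chain, or a nidogen (2). They were picked by a rule on symbols that uses no counts, set with earlier results of these data known. All 39 had at least 20 unique molecular identifiers (UMIs, 1 per captured RNA molecule) in nuclei that could be assigned to a cell class. Nuclei came from frozen livers of male mice that began a diet containing DDC, a porphyrin-inducing agent that damages the biliary tree, at 10 to 11 weeks of age and stayed on it for 4 weeks. The 2 groups are wild-type mice (WT, 2 libraries) and mice with a knockout of Rbpj, the DNA-binding partner of Notch, labelled as specific to hepatic progenitor cells (CKO, 2 libraries). Both groups received DDC, so nothing here compares DDC with a normal diet. The labels name no Cre driver or deleted exon and do not say whether the 2 libraries of a group came from separate animals, so p-values measure the spread between libraries, which may be technical. Rbpj itself was counted at 78.5 and 68.0 CPM in WT and 73.1 and 29.7 CPM in CKO over cholangiocyte-like nuclei, where the last value rests on 2 UMIs and the groups overlap. The groups also overlapped in hepatocyte-like, endothelial-like and mesenchymal-like nuclei. In macrophage-like nuclei they did not, at 103.8 and 99.3 CPM in WT and 73.6 and 32.9 CPM in CKO, the last from 10 UMIs. Reads from the 3' end need not show which exon was removed, so these counts do not check the genotype.

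An integrin is a pair of 1 alpha and 1 beta chain, and the pair sets the ligand. Itgb1 pairs with many alpha chains: with Itga3, Itga6 and Itga7 it binds laminin, with Itga1, Itga2, Itga10 and Itga11 it binds collagen, and with Itga5 or Itga8 it binds proteins that carry an RGD motif, such as fibronectin and nephronectin. Itgav pairs with Itgb1, Itgb3, Itgb5, Itgb6 or Itgb8, and its pairs with Itgb6 and Itgb8 are known as activators of latent TGF-beta. The chains that pair with Itgb2 belong to leukocytes. A laminin is a trimer of 1 alpha, 1 beta and 1 gamma chain that assembles outside the cell, where nidogens link it to collagen IV. In the liver, bile ducts and vessels rest on basement membranes, while the sinusoids have only a thin matrix, and DDC injury enlarges the ductal compartment and the matrix around it.

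The promoters of 3 members are shown because these members, Itga8, Lama2 and Itgb8, had the smallest p-values of the whole set in the comparison of genotypes, all in mesenchymal-like nuclei and all lower in CKO. Each runs from 250 bases before to 50 bases after the start site annotated by RefSeq on GRCm38.p6, is written 5′ to 3′ on the strand of the gene, and has in capitals any match to TGGGAA or its reverse complement TTCCCA, the core of the motif bound by RBPJ.

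Itga8, chr2:12301895-12302194, minus strand: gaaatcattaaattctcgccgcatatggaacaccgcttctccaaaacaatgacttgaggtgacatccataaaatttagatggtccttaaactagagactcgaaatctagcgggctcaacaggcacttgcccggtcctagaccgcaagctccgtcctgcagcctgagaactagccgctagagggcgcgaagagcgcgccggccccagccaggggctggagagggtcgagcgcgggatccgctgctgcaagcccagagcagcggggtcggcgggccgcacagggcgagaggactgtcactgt

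Lama2, chr10:27616893-27617192, minus strand: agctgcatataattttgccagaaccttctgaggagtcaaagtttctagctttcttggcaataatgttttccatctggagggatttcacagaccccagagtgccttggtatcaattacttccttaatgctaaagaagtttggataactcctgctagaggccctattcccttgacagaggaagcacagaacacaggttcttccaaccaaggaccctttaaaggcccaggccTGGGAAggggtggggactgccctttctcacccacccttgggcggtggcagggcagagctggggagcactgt

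Itgb8, chr12:119238227-119238526, minus strand: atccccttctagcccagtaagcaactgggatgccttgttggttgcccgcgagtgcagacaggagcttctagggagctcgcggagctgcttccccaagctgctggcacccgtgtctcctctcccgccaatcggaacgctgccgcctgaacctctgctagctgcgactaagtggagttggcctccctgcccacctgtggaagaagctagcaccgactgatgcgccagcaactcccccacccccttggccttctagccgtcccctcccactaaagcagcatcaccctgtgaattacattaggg

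The Lama2 window held 1 match, which begins 21 bases before the RefSeq start site used, and the windows of Itga8 and Itgb8 held none. In the GENCODE annotation Lama2 and Itgb8 reach upstream of these windows, to 27619758 and 119238802, and a start site there was not searched. Promoter sequences were found for 24 of the 39 members (27 promoters). The motif was present in the windows of 5 of these 24 genes, Itga2b, Lama2, Lamb1, Lamb3 and Nid1, and in 25.6% of all 32851 mouse promoters of the same length. A match describes letters and not a site in use, and the Rbpj knockout is labelled as that of another cell type than the mesenchyme.

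The libraries held 43664 barcodes: exactly 16000 in both replicates 1, 6480 in WT replicate 2 and 5184 in CKO replicate 2. They held 12261329 to 45620141 UMIs, with a median of 1722 to 2267 UMIs per barcode. Pairs of libraries shared 19 to 114 barcodes, at most 1.138% of the smaller library. After removal of likely doublets, 18248 of 39017 barcodes fell into clusters that carried the markers of 1 of 9 classes, and 20769 resembled free RNA or no single class and were left out. A class name means resemblance to markers. Only 5 classes held at least 20 nuclei in every library and were compared between genotypes; in WT the cholangiocyte-like class held 1414 and 299 nuclei and the mesenchymal-like class 684 and 202, and in CKO they held 495 and 33, and 403 and 89. All mesenchymal-like nuclei lay in 1 cluster. Endothelial-like nuclei lay mostly in cluster 8 for both WT libraries and CKO replicate 2 but in cluster 11 for CKO replicate 1. Macrophage-like nuclei lay mostly in cluster 3 for WT, 18 for CKO replicate 1 and 4 for CKO replicate 2, and hepatocyte-like nuclei in a different cluster for each library (5, 17, 20 and 23). Library and cluster therefore cannot be told apart in hepatocyte-like nuclei. The same is largely so for each CKO library of macrophage-like nuclei and for CKO replicate 1 of endothelial-like nuclei. Values are counts per 1000000 of a class's summed counts in a library (CPM), which can be compared between classes for 1 gene, not between genes.

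Among the 5 larger classes, 15 members had their highest mean level in mesenchymal-like nuclei, 11 in cholangiocyte-like, 9 in macrophage-like and 3 in endothelial-like nuclei, and 1 in hepatocyte-like nuclei. For 21 of the 39, the leading class was above the next class in all 4 libraries. These levels describe classes and carry no test, since the nuclei were grouped from the same counts, although the 39 genes themselves were left out of the clustering.

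**Figure D1:**
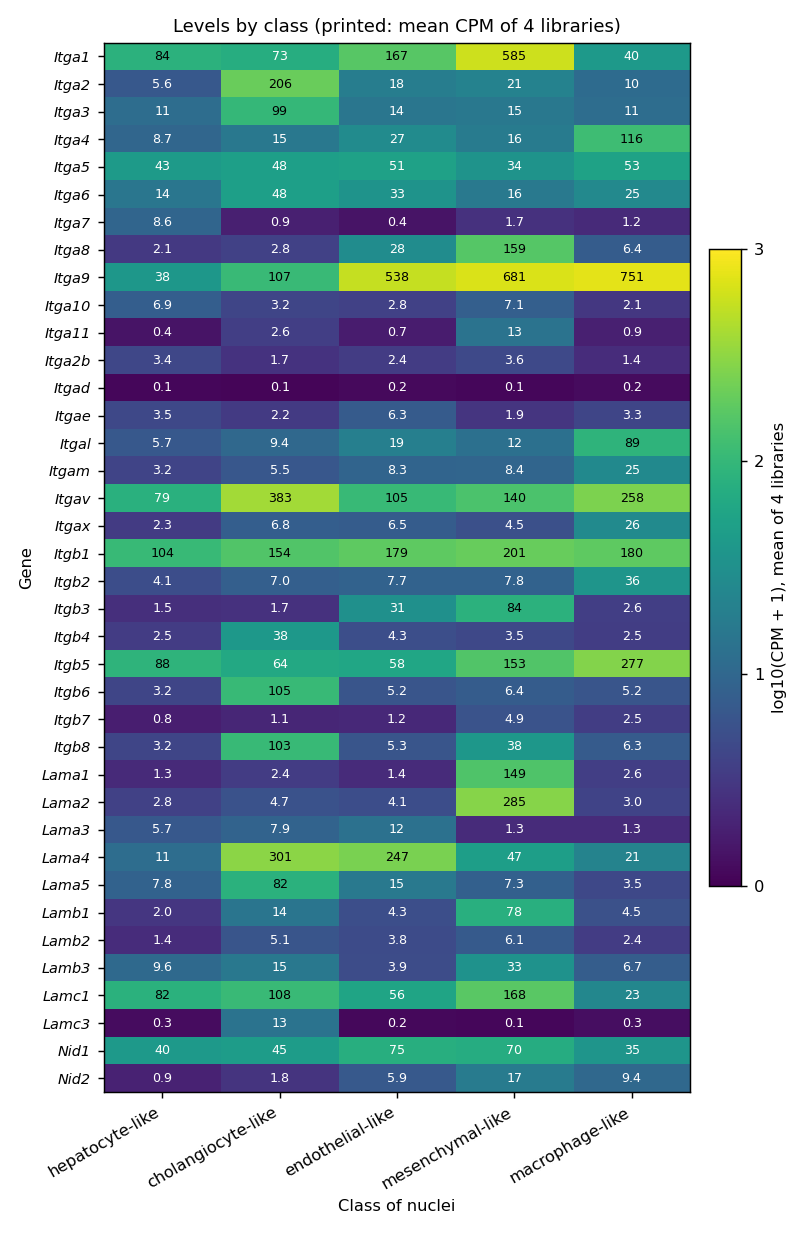
Mean level of each of 38 genes (rows) in the 5 larger classes (columns), with the mean CPM of the 4 libraries printed and the colour giving log10(CPM + 1). Lama1 and Lama2 stand out in mesenchymal-like nuclei, Itgb6, Itga2 and Itgb4 in cholangiocyte-like nuclei, and Itga4, Itgal and Itgb2 in macrophage-like nuclei.

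The laminin alpha chains, which carry most of the binding sites for integrins, were divided among classes. Lama1 was measured at 185, 123, 184 and 104 CPM in mesenchymal-like nuclei of WT replicates 1 and 2 and CKO replicates 1 and 2, in that order, which is also the order of the 4 values given for other genes below. Its mean there was 56.6 times that of the next class. Lama2 stood at 371, 448, 155 and 167 CPM in the same nuclei and 60.5 times above the next class, and every other class had a mean under 5 CPM. Lama4, the alpha chain of endothelial basement membranes, was shared: 346, 277, 239.8 and 341 CPM in cholangiocyte-like and 369, 224, 229 and 165 CPM in endothelial-like nuclei, and these 2 ranges overlap. Lama5, a chain of epithelial and vascular basement membranes, was led by cholangiocyte-like nuclei at 86.0, 95.9, 99.7 and 44.5 CPM, 5.29 times the endothelial-like mean and above it in every library. Lama3, part of the trimer that anchors epithelia, was low in all 5 classes, with its highest mean, 12.3 ± 7.10 CPM (SD over n = 4 libraries), in endothelial-like nuclei, and no neighbouring classes in its order were separate.

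Some of the beta and gamma chains were divided among classes and others were not. Lamb1 was highest in mesenchymal-like nuclei (111, 62.7, 91.4 and 46.1 CPM), 5.71 times the cholangiocyte-like mean. Lamc1, the gamma chain of most laminins, was counted in all 5 classes, with mesenchymal-like nuclei (199, 144, 155 and 173 CPM) above cholangiocyte-like nuclei (104, 108, 102 and 119 CPM) in every library. RNA free in the droplets, estimated from the unnamed barcodes, accounted for 94.3% of its counts in macrophage-like nuclei. The gamma chain Lamc3 was led by cholangiocyte-like nuclei at 13.6, 21.7, 2.05 and 14.8 CPM, where the CKO values rest on 3 and 1 UMIs, and it had 17 UMIs in the other 4 larger classes together. The mean of Lamb3, a partner of Lama3, was 33.2 ± 16.8 CPM in mesenchymal-like and 15 ± 10.6 CPM in cholangiocyte-like nuclei, with overlapping libraries. Lamb2 stayed at or under a mean of 6.10 CPM in each of the 5 classes, so its order cannot be read at this depth. Nid1 was counted in all 5 classes, from 35.2 CPM in macrophage-like to 75.3 CPM in endothelial-like nuclei, with each class overlapping its neighbours. Estimated free RNA held 92.4% of its counts in macrophage-like, 62.3% in cholangiocyte-like, 52.4% in endothelial-like and 46.8% in mesenchymal-like nuclei. Nid2 was highest in mesenchymal-like nuclei at 16.8 ± 4.75 CPM.

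Several laminin receptor chains had their highest level in cholangiocyte-like nuclei. Itga3 reached 122, 101, 128 and 44.5 CPM there, 6.58 times the next class, and Itgb4, which pairs only with Itga6 and forms the hemidesmosome receptor, reached 54.3, 51.0, 32.8 and 14.8 CPM, 8.95 times the next. Both were above the next class in all 4 libraries. Itga6 also had its highest mean in these nuclei (48.0 ± 12.5 CPM), but endothelial-like nuclei at 33.5 ± 14.4 CPM overlapped with them. Itga7 was low in every class, with its highest mean, 8.59 ± 5.39 CPM, in hepatocyte-like nuclei. Itgb1, their shared partner, had means from 104 CPM in hepatocyte-like to 201 CPM in mesenchymal-like nuclei, and each class overlapped the next. Estimated free RNA held 49.5% of its counts in mesenchymal-like, 54.5% in cholangiocyte-like, 68.4% in macrophage-like and 69.9% in endothelial-like nuclei. How even its level was in the nuclei themselves therefore cannot be read.

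Of the 4 collagen-binding alpha chains, Itga1 and Itga11 led in mesenchymal-like and Itga2 in cholangiocyte-like nuclei. Itga1 was measured at 635, 665, 584 and 455 CPM in mesenchymal-like nuclei, 3.49 times the endothelial-like mean. Itga2 was measured at 281, 234, 234 and 74.2 CPM in cholangiocyte-like nuclei, 9.97 times the mesenchymal-like mean, and the low value comes from the 33 nuclei of CKO replicate 2. Itga11, the receptor of fibroblasts for fibrillar collagen, was little counted (36 UMIs) but led in mesenchymal-like nuclei at 6.52, 13.9, 13.5 and 17.3 CPM. Itga10 lay at a mean of 7.10 CPM or less everywhere.

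Chains of the RGD-binding receptors were divided between ducts, mesenchyme and macrophages. Itgb6, known from epithelia under injury, was measured at 124, 150.0, 130.5 and 14.8 CPM in cholangiocyte-like nuclei, where the last value is 1 UMI, and at a mean of 6.41 CPM or less in the other 4 classes. RNA free in the droplets, estimated from the unnamed barcodes, accounted for 5.2% of its counts in cholangiocyte-like nuclei and 103.5% in macrophage-like nuclei. Itgb8 was at 127, 105, 90.2 and 89.1 CPM in the same nuclei and at 71.8, 44.1, 24.0 and 11.5 CPM in mesenchymal-like nuclei, the only other class with a mean above 10 CPM. Their partner Itgav was led by cholangiocyte-like nuclei too (497, 373, 528 and 134 CPM), followed by macrophage-like nuclei (346, 218, 268 and 201 CPM), with overlap. Itgb5 had its highest mean in macrophage-like nuclei (277 ± 81.4 CPM) and Itgb3 in mesenchymal-like nuclei (83.8 ± 16 CPM), followed by endothelial-like nuclei (31.1 ± 15.2 CPM). Itga8, which pairs with Itgb1, was a mesenchymal chain: 238, 253, 69.3 and 74.9 CPM, 5.74 times the endothelial-like mean of 27.7 CPM, which came in part from 167 UMIs of WT replicate 1. Itga5, the fibronectin receptor chain, was nearly level over the 5 classes, from 34.1 to 52.8 CPM. Itga2b, the platelet chain, was at 3.61 CPM or less in each.

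Leukocyte chains were found in the classes of immune cells. Itgal and Itgb2, which together bind ICAMs, were measured in macrophage-like nuclei at 126, 42.5, 124 and 62.6 CPM and at 48.5, 34.8, 42.8 and 16.5 CPM, above the next class in all libraries. Itga4, a receptor for VCAM1 and fibronectin, was at 152, 129, 82.7 and 102 CPM. Itgam and Itgax had their highest means there as well, 25.2 ± 13.1 and 26.0 ± 17.1 CPM, but overlapped the next class. Itga9, which binds tenascin C and other ligands, was high in 3 classes at once: 751 CPM in macrophage-like, 681 CPM in mesenchymal-like and 538 CPM in endothelial-like nuclei, whose ranges overlap in turn, against 107 CPM in cholangiocyte-like nuclei. Itgad was all but absent, with 14 UMIs over the 5 classes. The 4 smaller classes are given only for libraries that hold 50 or more of their nuclei, which are both replicates 1, or WT replicate 1 alone for mesothelial-like nuclei. Dendritic-like nuclei (260 in WT and 101 in CKO) held Itgae, the chain that binds E-cadherin, at 112 and 189 CPM, its partner Itgb7 at 63.1 and 34.4 CPM, and Itgax at 89.3 and 60.2 CPM, each above both replicates 1 of all 5 larger classes. Nuclei of the T or NK-like class (148 and 116) held Itga4 at 407 and 101 CPM, and B-like nuclei (113 and 56) at 204 and 113 CPM. In the 50 mesothelial-like nuclei of WT replicate 1, Lamc1 stood at 173 CPM, Lama5 at 75.0 CPM and Itga3 at 67.5 CPM.

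Within classes, members also differed between sub-clusters, which were again formed without them. Values here pool all libraries. Among 6 cholangiocyte-like sub-clusters, sub-cluster 2, led by Nos2 and Piezo2 (594 nuclei), had Itgb6 at 284 CPM, Itgav at 808 CPM and Itga2 at 428 CPM, against 88.7, 389 and 197 CPM in sub-cluster 3, led by Adamts16 (535 nuclei), an order found in each of the 4 libraries. The laminin chains went other ways: Lama4 was 459 CPM in sub-cluster 3 and 289.7 CPM in sub-cluster 2, and Lamc3 was 24.1 CPM in sub-cluster 3 (40 UMIs) and 1.7 CPM in sub-cluster 2 (3 UMIs). Sub-cluster 4, led by Pcdh11x, Col12a1 and Scn7a (325 nuclei), had Itgb6 at 13.1 CPM and Itgb4 at 18.0 CPM, both below sub-cluster 2 in WT replicates 1 and 2 and in CKO replicate 1, and Nid1 at 95.8 CPM. In endothelial-like nuclei, sub-cluster 5, led by Col8a1, Bmx and Gja5 (113 nuclei), had Itgb4 at 62.9 CPM, with 17 of the 33 UMIs of the class. It also had Lama3 at 59.2 CPM and Lama5 at 59.2 CPM, against 6.07 and 17.5 CPM in sub-cluster 2, which had 5 of 7 sinusoidal markers raised. The same sub-cluster 5 had 5 cholangiocyte markers raised over the other endothelial-like nuclei, and their part in these levels was not tested. Sub-cluster 6, which had 4 of 5 central-vein markers raised and was led by Rspo3, had Itga9 at 168 CPM and Lama4 at 105 CPM, both below sub-cluster 2 in each of the 4 libraries.

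In mesenchymal-like nuclei, sub-cluster 2 (434 nuclei) had each of 8 stellate markers above the rest of the class, and sub-cluster 3 (278 nuclei) had 6 of 9 portal fibroblast markers and no stellate marker raised. Lama1 and Itgb3 were in the first of these at 321 and 178 CPM, and stood at 54.5 and 16 CPM in the second. Lama2, Itga8 and Itgb5 had the opposite order: 149, 47.8 and 103 CPM in sub-cluster 2 and 536, 233 and 329 CPM in sub-cluster 3. The 62 nuclei of sub-cluster 5, led by Plcxd3 and Wt1, came as 44 and 9 from WT and 4 and 5 from CKO. They had Itga8 at 1283, 1097, 185 and 546 CPM and Lama2 at 742, 1039, 834 and 636 CPM. Within a library, Lama2 was highest there of the 6 sub-clusters in all 4 libraries and Itga8 in 3, the exception being CKO replicate 1 with 2 UMIs. Sub-cluster 1 had no stellate marker raised, and sub-cluster 4 (138 nuclei) had 11 endothelial and 8 macrophage markers raised.

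The comparison of CKO with WT asks, per class, whether these genes differ when Rbpj is deleted in hepatic progenitor cells. No member passed the threshold of an adjusted p under 0.05 in any class with edgeR's quasi-likelihood test on summed counts, adjusted over all genes tested. The count was 0 of 31 tested members in hepatocyte-like nuclei (all genes: 0.0% called), 0 of 23 in cholangiocyte-like (all genes: 0.175%, and 0.0874% lower in CKO), 0 of 19 in endothelial-like (0.0%), 0 of 21 in mesenchymal-like (0.0%) and 0 of 28 in macrophage-like nuclei (0.0%). DESeq2 called 0 members in each class as well. At an unadjusted p under 0.05, edgeR found 6 members in mesenchymal-like, 2 in cholangiocyte-like and 1 in macrophage-like nuclei, all lower in CKO, and 0 in the other 2 classes. Over all genes, unadjusted p-values that small with a lower level in CKO occurred for 3.53% in mesenchymal-like, 2.86% in cholangiocyte-like and 2.19% in macrophage-like nuclei. In either direction they occurred for 7.65% of genes in mesenchymal-like, 5.85% in cholangiocyte-like, 5.29% in macrophage-like, 1.77% in hepatocyte-like and 5.1% in endothelial-like nuclei, and with a lower level in CKO for 0.928% in hepatocyte-like and 1.92% in endothelial-like nuclei. With 2 libraries against 2, an exact two-sided permutation test of 1 value cannot go below 0.333. The values below are therefore differences in size, given with the spread of the libraries, and none of them passed the test over all genes.

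**Figure D2:**
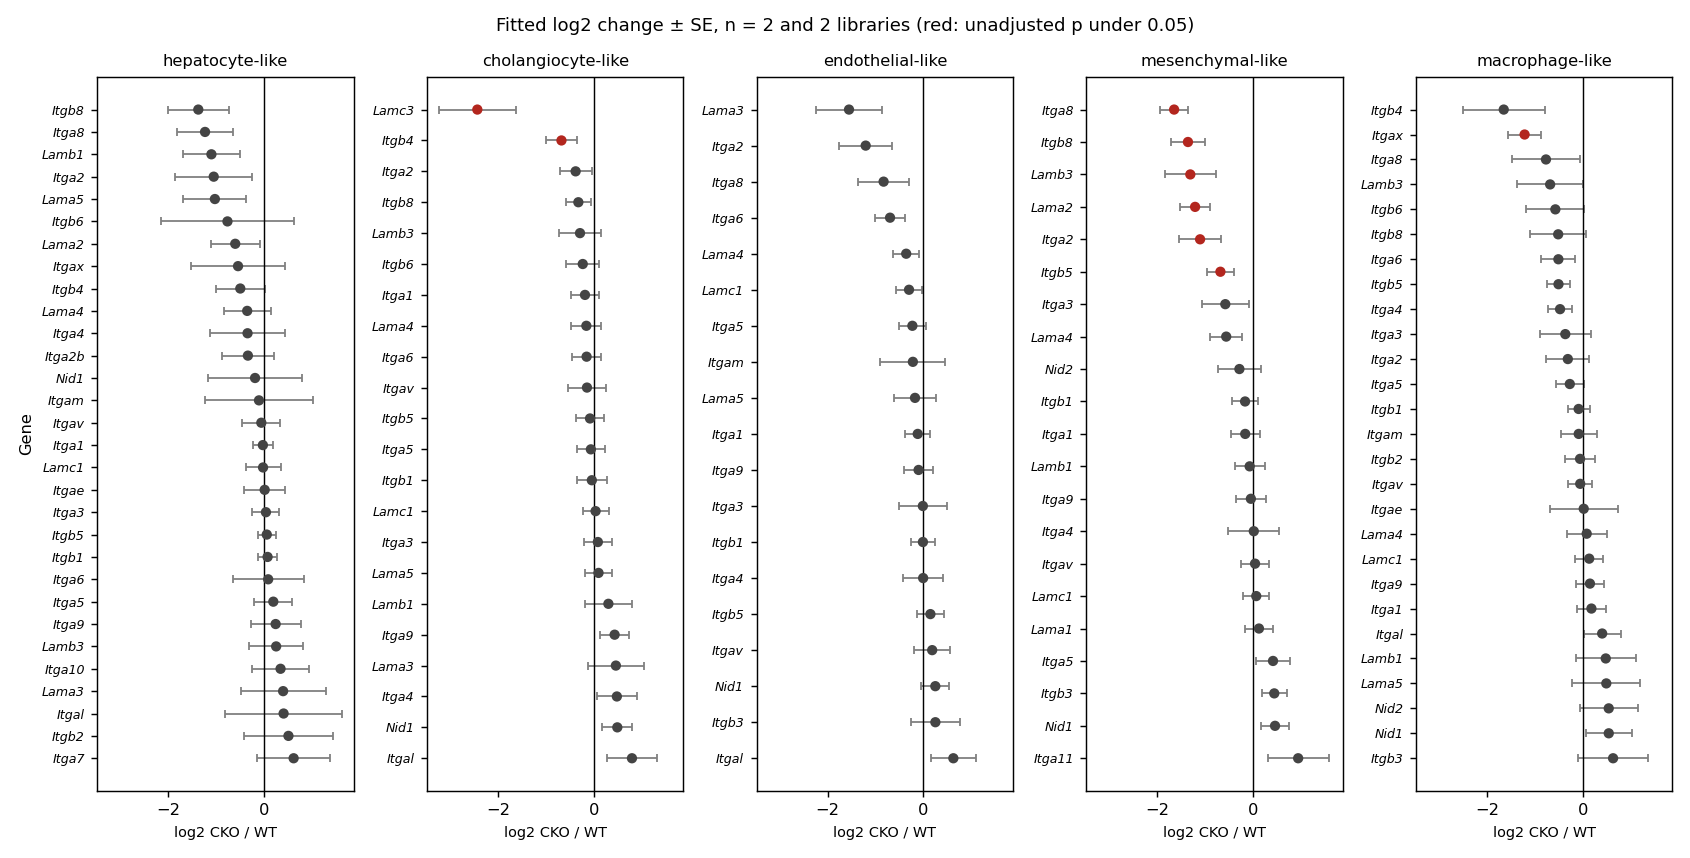
Fitted log2 change (CKO over WT, points) with its SE (bars) for reported members with at least 20 UMIs that were tested in each class, over 2 libraries per genotype; red marks an unadjusted p under 0.05. The 6 red points in mesenchymal-like nuclei all lie below 0, and no point passed the adjusted threshold.

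Mesenchymal-like nuclei had 6 of the 9 members at an unadjusted p under 0.05. Of their 21 tested members, 13 had a negative log2 change, with a median of -0.16 (all genes: 0.01). In 9 of the 21, both CKO libraries were below both WT libraries, which was so for 27.4% of all genes tested there, and in none were both above (all genes: 9.63%). The receptor chain Itga8 was measured at 238 and 253 CPM in WT and 69.3 and 74.9 CPM in CKO, from 475, 109, 72 and 13 UMIs. Both WT libraries lay more than 3 times above both CKO libraries. The fitted log2 change was -1.65 (SE 0.29, unadjusted p = 1.62e-04, adjusted p = 0.2) by edgeR with Benjamini-Hochberg adjustment, and was -1.56 and -1.60 within replicates 1 and 2. Free RNA was estimated to account for 3.5% of its counts. The adjusted p passed the threshold with barcodes of at least 2000 UMIs (0.0413, a limit chosen after the data were seen), without the filter on low counts (8.82e-04), with WT replicate 1 left out (0.0295), with CKO replicate 1 left out (0.0252) and with CKO replicate 2 left out (6.05e-06), and was 0.257 with WT replicate 2 left out. It did not pass with RLE scaling (0.218), with Leiden resolution 2 (0.44), with doublets kept (0.609), with free RNA subtracted (0.816) or with DESeq2 (1), and the change was negative in all of these fits.

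The laminin chain Lama2, which joins the basement membrane of mesenchymal cells, was at 371 and 448 CPM in WT and 155 and 167 CPM in CKO, again with no overlap. Its log2 change was -1.21 (SE 0.31, unadjusted p = 0.00245, adjusted p = 0.322), and -1.05 and -1.28 within the replicate numbers. The other alpha chain of these nuclei, Lama1, did not share this: it was at 185 and 123 CPM in WT and 184 and 104 CPM in CKO, with overlapping groups and a log2 change of 0.12 (SE 0.29). Nor did the chains that complete the trimer, Lamb1 (111 and 62.7 CPM in WT and 91.4 and 46.1 CPM in CKO; log2 change -0.07, SE 0.31) and Lamc1 (199 and 144 CPM in WT and 155 and 173 CPM in CKO; log2 change 0.07, SE 0.27), whose groups overlap. Lamb3, at 36.6 and 51.1 CPM in WT and 10.6 and 34.6 CPM in CKO, had a log2 change of -1.31 (SE 0.53, unadjusted p = 0.0324, adjusted p = 0.59) but rested on CKO replicate 1, without which it was 0.04.

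Among the partners of Itgav, Itgb8 was at 71.8 and 44.1 CPM in WT and 24.0 and 11.5 CPM in CKO, with a log2 change of -1.36 (SE 0.36, unadjusted p = 0.00319, adjusted p = 0.36). Its CKO values come from 25 and 2 UMIs, and the groups do not overlap. Without CKO replicate 1 the change was -2.16. Itgb5, a receptor for vitronectin, was at 190.2 and 209 CPM in WT and 131 and 80.7 CPM in CKO and -0.68 (SE 0.29, unadjusted p = 0.0383, adjusted p = 0.608). Without CKO replicate 1 it was -1.06. Itgav itself overlapped between groups, at 177 and 123 CPM in WT and 174 and 86.4 CPM in CKO, as did Itgb3, at 84.8 and 69.7 CPM in WT and 106 and 74.9 CPM in CKO, for which the fitted change was 0.44 (SE 0.26). The shared beta chain Itgb1, the partner of Itga8, was at 248 and 204 CPM in WT and 209 and 144 CPM in CKO, with CKO replicate 1 between the WT libraries. Free RNA was estimated to hold 49.5% of the counts of Itgb1 and 47.0% of those of Itgav. The overlap of Itgb1 and Itgav therefore does not show unchanged levels in the nuclei themselves. The collagen receptor chain Itga2 was low, at 30.6 and 27.9 CPM in WT and 12.5 and 11.5 CPM in CKO, and free RNA was estimated to hold 45.0% of its counts; its log2 change was -1.11 (SE 0.44, unadjusted p = 0.029, adjusted p = 0.589), and the part of other cells in it was not tested.

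**Figure D3:**
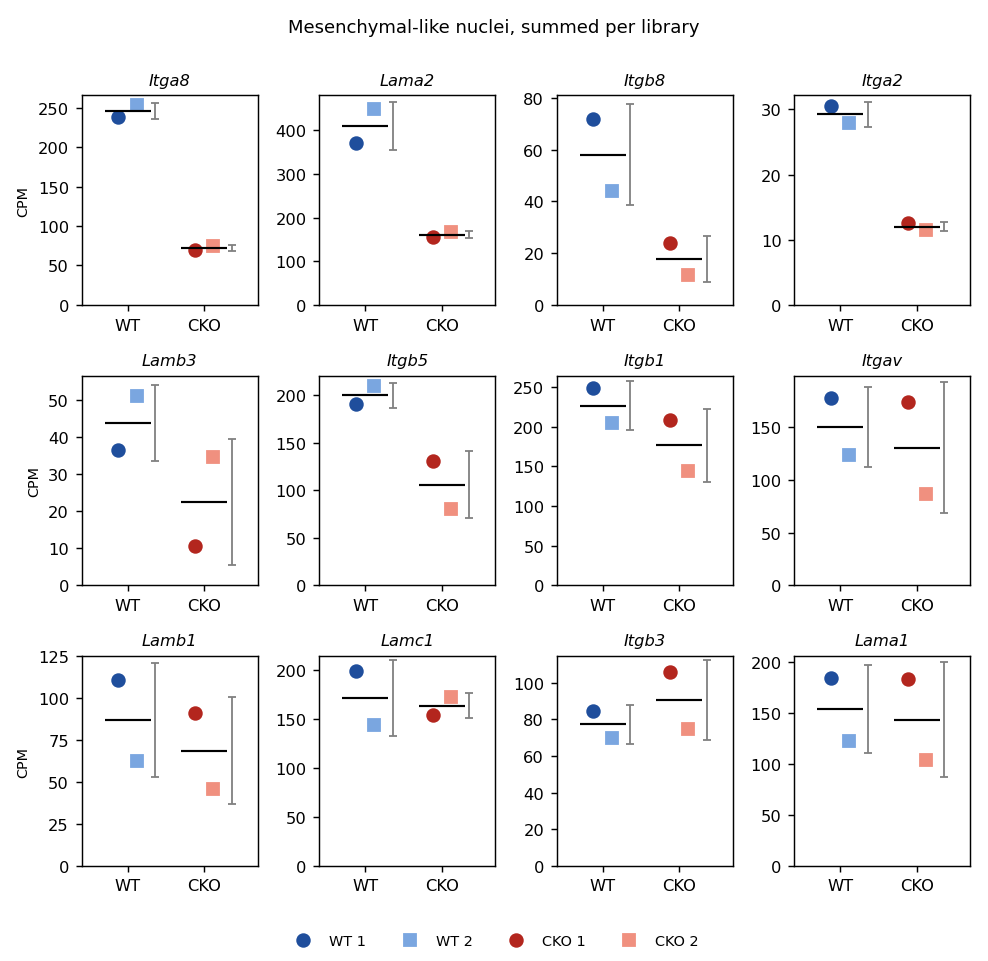
CPM (y axis, from 0) of 12 members in mesenchymal-like nuclei, 1 point per library, with the mean of each genotype (black line) and its SD over 2 libraries (grey bar, cut at 0). Itga8, Lama2, Itgb8, Itga2, Lamb3 and Itgb5 show both CKO libraries below both WT libraries, while their partner chains Itgb1, Itgav, Lamb1 and Lamc1 overlap. Free RNA was estimated to hold 49.5% of the counts of Itgb1 and 47.0% of those of Itgav.

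The mesenchymal-like sums mix sub-clusters, and the shares of some of them moved with genotype. Sub-cluster 3, with the portal fibroblast markers, was 24.0% and 24.8% of the class in WT and 15.6% and 1.12% in CKO, and sub-cluster 1 was 24.9% and 26.7% of the class in WT and 43.9% and 56.2% in CKO. The stellate-like sub-cluster 2 was 37.7% and 28.2% of the class in WT and 25.6% and 18.0% in CKO. Sub-cluster 5 was 6.43% and 4.46% of the class in WT and 0.99% and 5.62% in CKO, with overlap. Within sub-cluster 1, Itga8 was at 227 and 208 CPM in WT and 35.6 and 53.7 CPM in CKO, and Lama2 at 397 and 336 CPM in WT and 109 and 150.5 CPM in CKO. Within the stellate-like sub-cluster 2, Itga8 was at 55.6 and 50.6 CPM in WT and 26.4 and 32.9 CPM in CKO, and Lama2 at 180.5 and 135 and 83.0 and 32.9 CPM, the CKO values of Itga8 resting on 7 and 1 UMIs. Both genes were lower in both CKO libraries within sub-clusters 1, 2 and 4. Of these, sub-cluster 1 had no stellate and 1 of 9 portal fibroblast markers raised, and sub-cluster 4 had 11 endothelial and 8 macrophage markers raised. Whether the make-up of a sub-cluster differed between genotypes was not tested. In sub-cluster 3 the 63 nuclei of CKO replicate 1 had Itga8 at 239 CPM, between the WT values of 214 and 311 CPM, and CKO replicate 2 had 1 nucleus. Itgb3 was higher in both CKO libraries of sub-cluster 1, at 33.7 and 29.7 CPM in WT and 85.5 and 86.0 CPM in CKO there. With sub-clusters 1 and 2 alone, an alternative added after the data were seen, the fitted change of the class was -1.62 for Itga8 (adjusted p = 0.52 by edgeR) and -1.06 for Lama2 (adjusted p = 0.72).

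**Figure D4:**
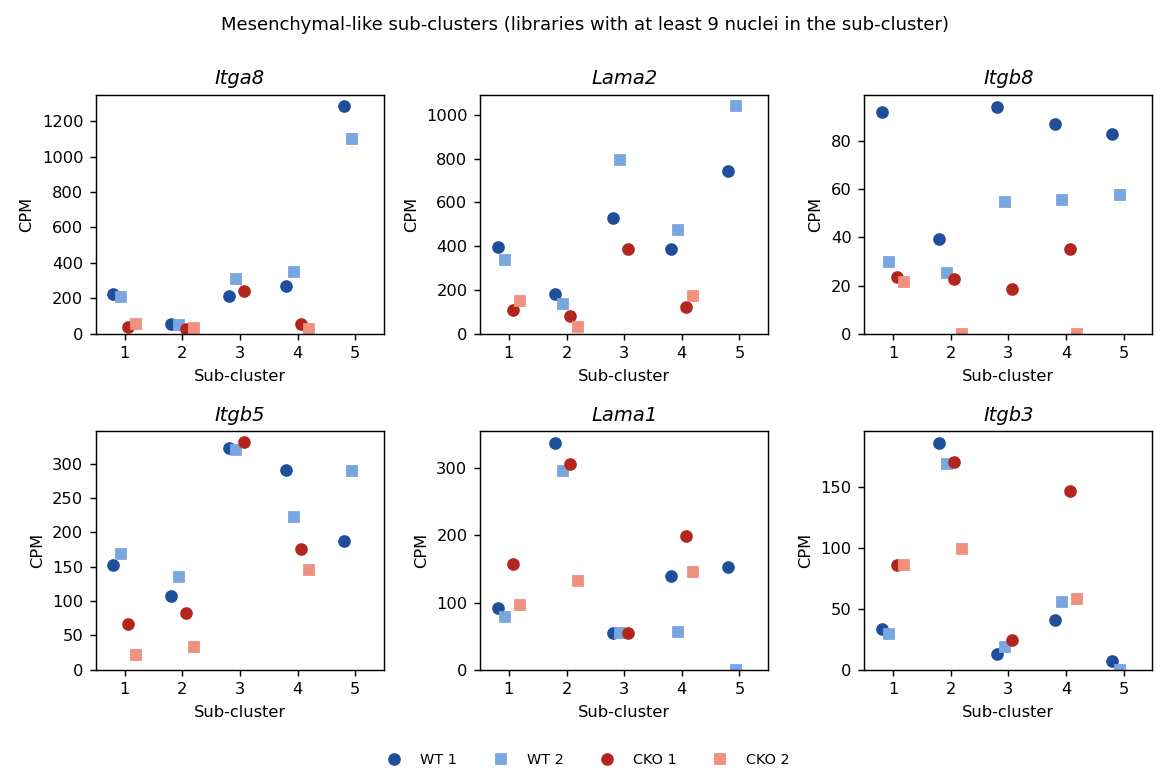
CPM (y axis, from 0) of 6 members in mesenchymal-like sub-clusters 1 to 5 (x axis), 1 point per library with at least 9 nuclei in the sub-cluster. Itga8 and Lama2 lie lower in CKO in sub-clusters 1, 2 and 4, and Lama1 and Itgb3 are highest in sub-cluster 2 in both WT libraries.

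Other measures moved with genotype in the same nuclei. The estimated share of free RNA was 55.8% and 61.2% of the counts in WT and 67.5% and 71.6% in CKO. The 11 mesenchymal markers that name the class summed to 3474 and 2414 CPM in WT and 2701 and 1734 CPM in CKO. Of these 11, 7 were lower in both CKO libraries and 0 were higher in both. The summed level of 9 portal fibroblast markers was 119 and 86.0 CPM in WT and 53.9 and 46.1 CPM in CKO, with 5 of the 9 lower in both CKO libraries. That of 8 stellate markers was 8419 and 5569 CPM in WT and 7863 and 6844 CPM in CKO. The 11 cholangiocyte markers summed to 1166 and 1011 CPM in WT and 786 and 334 CPM in CKO, with 10 of the 11 lower in both CKO libraries and none at 0, and the 8 hepatocyte markers to 17702 and 17512 CPM in WT and 29886 and 22997 CPM in CKO. Among the 12 tested members whose counts were less than 20% free RNA, the median log2 change was -0.12, against -0.27 over all 1105 such genes of the class. The part of these shifts in the lower Itga8, Lama2 and Itgb8 was not tested; with the estimated free RNA subtracted, their log2 changes were -1.42, -1.0 and -1.27.

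Itga8 and Lama2 were scarcer in the other larger classes, while Itgb8 was higher in cholangiocyte-like nuclei. Itga8 was at 52.4 and 13.7 CPM in WT and 15.2 and 29.4 CPM in CKO in endothelial-like nuclei, where both CKO libraries lie between the WT libraries, and the change turned from -0.83 to 0.60 without WT replicate 1. It was at 3.54 and 2.55 CPM in WT and 0.99 and 1.42 CPM in CKO in hepatocyte-like nuclei and 13.2 and 1.29 CPM in WT and 4.52 and 6.58 CPM in CKO in macrophage-like nuclei. Lama2 was at 3.91 and 3.01 CPM in WT and 2.78 and 1.59 CPM in CKO in hepatocyte-like nuclei. Whether any change differs between classes was not tested.

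Cholangiocyte-like nuclei carry markers that hepatic progenitor cells share with bile ducts. Of 23 tested members, 14 had a negative log2 change, with a median of -0.08 (all genes: -0.02). For the 13 tested members whose counts were less than 20% free RNA the median was -0.155, against -0.227 over all 1682 such genes. Both CKO libraries were below both WT libraries for 6 members, among them Itga1, Itga5, Itga6, Itgb4 and Itgb8 (all genes: 20.7%), and above for Lamb1 (all genes: 9.2%), which was at 13.8 and 10.8 CPM in WT and 15 and 14.8 CPM in CKO. The smallest p belonged to Lamc3, a gamma chain found in this class nearly alone. It was at 13.6 and 21.7 CPM in WT and 2.05 and 14.8 CPM in CKO, from 60, 14, 3 and 1 UMIs, and its log2 change was -2.43 (SE 0.81, unadjusted p = 0.00751, adjusted p = 0.429). CKO replicate 1 was low and CKO replicate 2 lay between the WT libraries, and without CKO replicate 1 the change was 0.03. Sub-cluster 3, where Lamc3 stood above sub-cluster 2, was 26.7% and 20.4% of the class in WT and 17.2% and 36.4% in CKO. The part of these shares was not tested. The hemidesmosome chain Itgb4 was at 54.3 and 51.0 CPM in WT and 32.8 and 14.8 CPM in CKO, without overlap, with a log2 change of -0.68 (SE 0.32, unadjusted p = 0.0487, adjusted p = 0.847). The lowest value is 1 UMI, and without CKO replicate 1 the change was -1.72. Its only partner, Itga6, was at 56.6 and 55.7 CPM in WT and 49.9 and 29.7 CPM in CKO, also without overlap, with a smaller change of -0.15 (SE 0.30). The basement membrane linker Nid1 (53.4 and 40.2 CPM in WT and 71.1 and 14.8 CPM in CKO; 0.49 (SE 0.31, unadjusted p = 0.131, adjusted p = 0.998)) and the leukocyte chain Itgal (12.4 and 6.19 CPM in WT and 19.1 and 0 CPM in CKO; 0.80 (SE 0.51, unadjusted p = 0.138, adjusted p = 1)) had the next smallest p. Without CKO replicate 1 the change of Nid1 was -1.61. Free RNA was estimated to hold 62.3% and 87.6% of the counts of Nid1 and Itgal.

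Of the chains known as TGF-beta activators, Itgb8 was at 127 and 105 CPM in WT and 90.2 and 89.1 CPM in CKO with a log2 change of -0.32 (SE 0.27). Itgb6 was at 124 and 150.0 CPM in WT and 130.5 and 14.8 CPM in CKO, so that only CKO replicate 2 was low, with 1 UMI in 33 nuclei, and its change was -0.23 (SE 0.34). The laminin chain Lamb3, at 24.7 and 17.0 CPM in WT and 18.4 and 0 CPM in CKO, had a change of -0.29 (SE 0.43). Lama4 and Lama5, at 346 and 277 CPM in WT and 239.8 and 341 CPM in CKO and at 86.0 and 95.9 CPM in WT and 99.7 and 44.5 CPM in CKO, had overlapping groups. CKO replicate 2 was the lowest library for Itgav, Itga2, Itga3, Itgb1 and Lama5. The estimated share of free RNA was 52.0% and 57.8% of the counts in WT and 59.0% and 71.7% in CKO, and the 11 cholangiocyte markers summed to 6598 and 5751 CPM in WT and 4897 and 4987 CPM in CKO, with 8 of the 11 lower in both CKO libraries. Their part in these values was not tested.

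**Figure D5:**
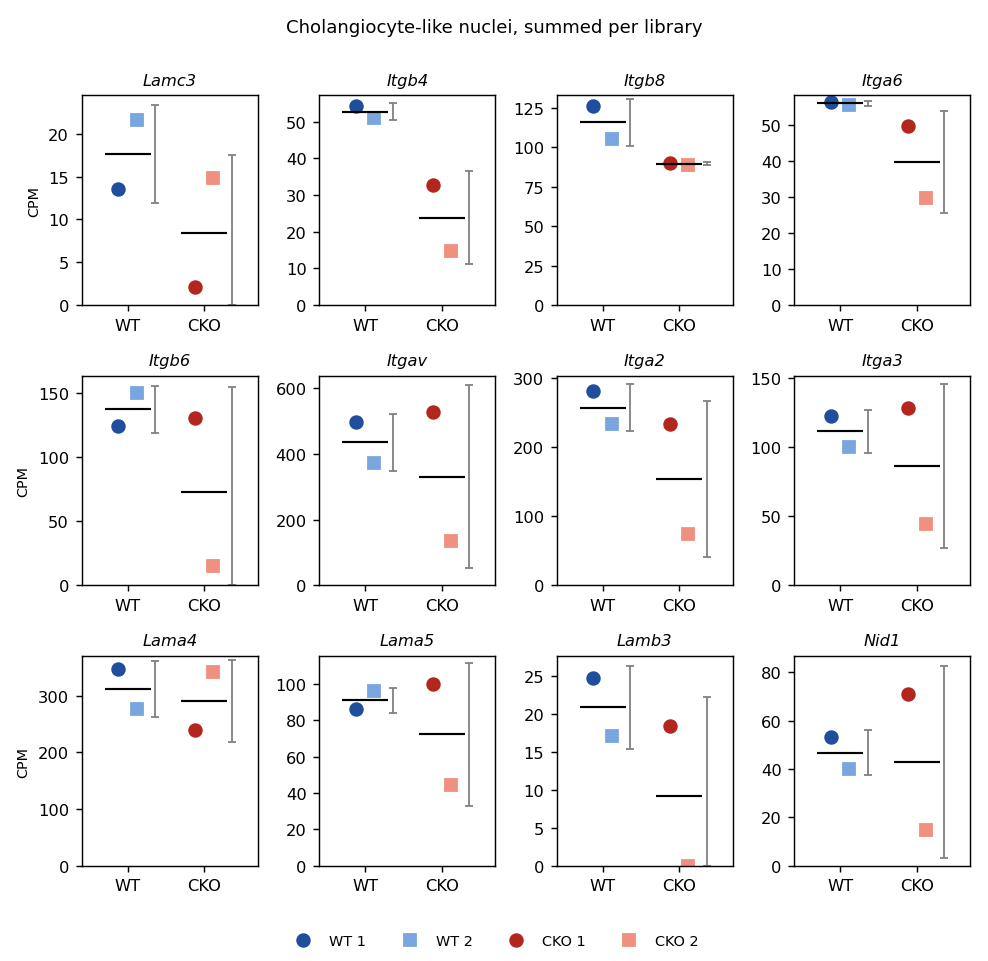
CPM (y axis, from 0) of 12 members in cholangiocyte-like nuclei, 1 point per library, with the mean of each genotype (black line) and its SD over 2 libraries (grey bar, cut at 0). Itgb4, Itgb8 and Itga6 have both CKO libraries below both WT libraries, and for Itgb6, Itgav, Itga2, Itga3, Lama5 and Nid1 only CKO replicate 2, with 33 nuclei, is low.

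In macrophage-like nuclei, 16 of 28 tested members had a negative log2 change (median -0.07, all genes: 0.00). For the 4 tested members whose counts were less than 20% free RNA the median was -0.16, against -0.29 over all 846 such genes. Both CKO libraries were lower for 7 members (all genes: 25.9%) and higher for Lamb1 (all genes: 6.24%). Itgax, a complement receptor chain of macrophages and dendritic cells, was at 38.0 and 42.5 CPM in WT and 16.9 and 6.58 CPM in CKO, the CKO values from 86 and 2 UMIs, and its log2 change was -1.22 (SE 0.35, unadjusted p = 0.00749, adjusted p = 0.903). Without CKO replicate 1 the change was -2.25. Its partner Itgb2 overlapped, at 48.5 and 34.8 CPM in WT and 42.8 and 16.5 CPM in CKO (-0.06, SE 0.31), as did the other chains that pair with Itgb2: Itgam at 36.2 and 25.8 CPM in WT and 32.2 and 6.58 CPM in CKO and Itgal at 126 and 42.5 CPM in WT and 124 and 62.6 CPM in CKO. Itgb5, which was highest in this class, was at 376 and 308 CPM in WT and 225 and 198 CPM in CKO, without overlap, with a change of -0.51 (SE 0.23, unadjusted p = 0.0601, adjusted p = 0.982). Its partner Itgav was at 346 and 218 CPM in WT and 268 and 201 CPM in CKO, with overlap. Itga4 was at 152 and 129 CPM in WT and 82.7 and 102 CPM in CKO (-0.47 (SE 0.25, unadjusted p = 0.0886, adjusted p = 1)), or -0.19 without CKO replicate 1, while its partner Itgb1 had a change of -0.09 (SE 0.23). Itgb4, at 34 UMIs, had the next smallest p (-1.65 (SE 0.86, unadjusted p = 0.0893, adjusted p = 1)), and the estimated free RNA equalled or exceeded its counts. For Itgb1 the estimated free RNA was 68.4% of the counts. Most macrophage-like nuclei of WT and of each CKO library lay in different clusters. The estimated free RNA of the class was 65.7% and 72.8% of the counts in WT and 76.4% and 77.5% in CKO. The part of clusters or free RNA in these values was not tested.

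Endothelial-like nuclei had 14 of 19 tested members with a negative change (median -0.12, all genes: 0.01). For the 3 tested members whose counts were less than 20% free RNA the median was -0.10, against -0.34 over all 656 such genes. Both CKO libraries were lower in 7 of the 19 (all genes: 27.9%) and higher in none (all genes: 6.72%). Lama3 was at 14.1 and 20.5 CPM in WT and 3.44 and 11.0 CPM in CKO, with a log2 change of -1.55 (SE 0.69, unadjusted p = 0.0505, adjusted p = 0.957). Itga2, the collagen receptor chain, was at 38.0 and 18.3 CPM in WT and 14.7 and 0 CPM in CKO, the last value from 0 UMIs (-1.21 (SE 0.56, unadjusted p = 0.0573, adjusted p = 0.96)). The change of Itga2 was -0.96 without CKO replicate 2, and -8.43 without CKO replicate 1, a fitted value against a library at 0 that is no bound. Sub-cluster 5, which held 16 of the 64 Lama3 UMIs and 30 of the 159 Itga2 UMIs of the class, made up 5.87% and 6.69% of the class in WT and 1.89% and 0.66% in CKO. Itga6, the laminin receptor chain, was at 52.1 and 36.5 CPM in WT and 27.0 and 18.3 CPM in CKO, without overlap, at -0.70 (SE 0.32, unadjusted p = 0.0576, adjusted p = 0.961 by edgeR). Its partner Itgb1 was at 212 and 176 CPM in WT and 191 and 139 CPM in CKO, with overlap. Free RNA was estimated to hold 69.9% of the Itgb1 counts. The endothelial laminin chain Lama4 was at 369 and 224 CPM in WT and 229 and 165 CPM in CKO, where CKO replicate 1 lies just above WT replicate 2, with a change of -0.36 (SE 0.28). Its usual partner Lamc1 was at 76.2 and 57.0 CPM in WT and 53.6 and 36.7 CPM in CKO and did not overlap (-0.30, SE 0.27). Estimated free RNA was 69.7% and 71.8% of the counts in WT and 79.4% and 83.8% in CKO, and the 11 endothelial markers summed to 6406 and 5061 CPM in WT and 3825 and 4173 CPM in CKO, with 8 of the 11 lower in both CKO libraries; their part was not tested.

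Hepatocyte-like nuclei led the order of levels for 1 member, Itga7. Of 31 tested members, 18 had a negative change (median -0.06, all genes: 0.01), and both CKO libraries were lower for 6 (all genes: 16.9%) and higher for none (all genes: 7.64%). The 4 smallest p-values were those of Itgb8, Itga8, Lamb1 and Lama5, with log2 changes of -1.37, -1.23, -1.10 and -1.03 and unadjusted p from 0.0857 to 0.185 by edgeR. Without CKO replicate 1 the changes of Itgb8 and Lama5 were -2.22 and -2.24, and without CKO replicate 2 -0.87 and -0.36. All 4 were at 10.7 CPM or less in every library. In the same nuclei the 11 cholangiocyte markers summed to 640.3 and 391 CPM in WT and 341 and 181 CPM in CKO, with 5 of the 11 lower in both CKO libraries. The 11 mesenchymal markers summed to 116 and 73.7 CPM in WT and 105 and 55.4 CPM in CKO, with 3 of the 11 lower in both CKO libraries and 1 higher. The part of RNA from either cell type in these low levels was not tested. Members with many counts in hepatocyte-like nuclei overlapped between genotypes, among them these 4: Itgb1 was at 114 and 94.4 CPM in WT and 118 and 90.6 CPM in CKO, Itgav at 94.5 and 69.3 CPM in WT and 106 and 45.1 CPM in CKO, Itgb5 at 93.2 and 83.7 CPM in WT and 98.9 and 76.2 CPM in CKO and Lamc1 at 82.1 and 85.1 CPM in WT and 109.6 and 50.1 CPM in CKO.

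Genes around these receptors were read from 3 lists. None of the tested genes of any list passed the adjusted threshold in any of the 5 classes by edgeR. Of 25 adaptors that connect integrins to actin, 22 to 25 were tested per class, and at an unadjusted p under 0.05 there were 2 lower in CKO, both in cholangiocyte-like nuclei (all genes: 2.86% lower), and 0 higher in any class. These were Fermt1, the kindlin of epithelia that activates integrin beta chains, at 105 and 105 CPM in WT and 56.7 and 14.8 CPM in CKO (-0.94 (SE 0.30, unadjusted p = 0.00647, adjusted p = 0.416)), and Tln2, a talin, at 35.8 and 23.2 CPM in WT and 14.3 and 29.7 CPM in CKO (-0.97 (SE 0.40, unadjusted p = 0.0276, adjusted p = 0.696)). Fermt1 did not overlap between genotypes, although 14.8 CPM in CKO replicate 2 is 1 UMI, and CKO replicate 2 lies between the WT libraries for Tln2. The median change of the list there was -0.11 (all genes: -0.02).

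Of 22 other basement membrane genes, 15 to 19 were tested per class. At an unadjusted p under 0.05, 2 of 15 were lower in mesenchymal-like (all genes: 3.53%) and 1 of 18 in hepatocyte-like nuclei (all genes: 0.928%), and 0 were higher in any class. Col4a5, a collagen IV chain, was at 46.7 and 51.1 CPM in WT and 20.2 and 17.3 CPM in CKO in mesenchymal-like nuclei (-1.14 (SE 0.37, unadjusted p = 0.01, adjusted p = 0.47)) and at 33.9 and 18.3 CPM in WT and 11.7 and 5.84 CPM in CKO in hepatocyte-like nuclei (-1.5 (SE 0.43, unadjusted p = 0.0194, adjusted p = 1)), without overlap in either. Col15a1, a collagen of the basement membrane zone, was at 114 and 121 CPM in WT and 68.3 and 17.3 CPM in CKO in mesenchymal-like nuclei (-0.96 (SE 0.36, unadjusted p = 0.0214, adjusted p = 0.555)). The list's medians there were -0.03 and -0.27 (all genes: 0.01 in both).

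Of 25 other integrin ligands, 15 to 20 were tested per class. At an unadjusted p under 0.05 in mesenchymal-like nuclei, 2 of 20 were lower and 3 higher (all genes in either direction: 7.65%). In endothelial-like nuclei 1 of 17 was lower and 2 higher (all genes: 5.1%), and in cholangiocyte-like nuclei 1 of 15 was higher (all genes: 5.85%). Svep1, a matrix ligand of the Itga9 receptor, was at 145 and 118 CPM in WT and 71.2 and 34.6 CPM in CKO in mesenchymal-like nuclei (-0.98 (SE 0.29, unadjusted p = 0.00587, adjusted p = 0.415)), without overlap. Emilin1, an elastic-fibre protein, was at 19.8 and 34.2 CPM in WT and 8.36 and 3.67 CPM in CKO in endothelial-like nuclei (-1.52 (SE 0.57, unadjusted p = 0.0246, adjusted p = 0.938)). The higher values included fibrinogen chains, which hepatocytes make: Fgg was at 416 and 467 CPM in WT and 768 and 743 CPM in CKO in mesenchymal-like nuclei (0.93 (SE 0.31, unadjusted p = 0.0119, adjusted p = 0.495)) and at 524 and 593 CPM in WT and 896 and 928 CPM in CKO in endothelial-like nuclei (0.90 (SE 0.33, unadjusted p = 0.0222, adjusted p = 0.938)), and Fga at 457 and 465 CPM in WT and 808 and 668 CPM in CKO in cholangiocyte-like nuclei (0.73 (SE 0.33, unadjusted p = 0.0434, adjusted p = 0.816)). The estimated free RNA was also higher in CKO libraries of all 3 classes. Its scale is set by secreted hepatocyte transcripts that include Fgb and Fgg, so it is not independent of these values. In hepatocyte-like nuclei Fgg was at 425 and 511 CPM in WT and 653 and 615 CPM in CKO. Fga was there at 426 and 473 CPM in WT and 778 and 507 CPM in CKO, and neither had an unadjusted p under 0.05 by edgeR. The part of free RNA or of hepatocyte levels was not tested.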

How the data were processed

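The deposited counts are raw UMI counts per gene and barcode, which the authors made with Cell Ranger 5.0.1 on mm10 per the submitters' processing notes, from 10x Genomics 3' libraries of nuclei per the labels' protocols. The counts are not normalised, and 7 added sequences were left out. Values of 1 of the 39 members are not reported here, although it is included in the counts and medians over members. Groups and replicate numbers come from the labels. The members and gene lists were chosen with earlier results of these data known.

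Barcodes with at least 500 genes were kept, and those with the highest Scrublet scores were removed as doublets (0.8% per 1000 barcodes of a library). Clusters (scanpy 1.11.5, Leiden resolution 1 with igraph 0.11.9; 2000 variable genes, 30 principal components, 15 neighbours) were formed without the members. Clusters were named for a class where 3 or more of its markers and 50% of the list lay 1.5 times or more above free RNA, the profile of the 10% of barcodes with fewest UMIs in each library scaled to secreted hepatocyte transcripts, and when no other class led; these levels were set after the clusters were seen. Sub-clusters used 15 components of values centred per library, and their markers were set against the other sub-clusters of the class. The free RNA share of a class's counts was estimated from the profile of unnamed barcodes, scaled in the same way, and can count a class's own RNA as free.

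Within each class, counts were added up by library and tested with edgeR 4.0.16 (R 4.3.3; filterByExpr, TMM, two-sided quasi-likelihood test, Benjamini-Hochberg adjustment over all genes of the class). CPM values carry no TMM factor, so a fitted change can differ from their ratio. Changes within a replicate number use log2 CPM with a prior count of 2. The text names, per class, members past the threshold, the 4 with the smallest p and at least 20 UMIs, their partner chains, and up to 2 genes per list; any other member named for a difference was chosen after its values were seen. The fits were also run on simulated counts with the same spread for every gene and no free RNA or sub-clusters. That run cannot show how the fits behave on these data. The other settings tried were RLE scaling, DESeq2 1.42.0, all genes kept whatever their count, each library left out, a replicate block, doublets kept, resolution 2, limits of 1000 and 2000 UMIs, free RNA subtracted and sub-clusters left out; the last and the limit of 2000 UMIs were chosen after seeing the data. Promoters are from RefSeq (GRCm38.p6); protein sequences were not used here. UMI totals limit precision as counting error only.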

Additional observations from a re-analysis of the deposited data

Results flagged for a closer look

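Lamb1, a laminin beta chain, lay lower in both CKO libraries of hepatocyte-like nuclei and higher in both of cholangiocyte-like and macrophage-like nuclei. Its log2 change was -1.10 in hepatocyte-like nuclei (2.79 and 2.78 CPM in WT and 1.59 and 0.88 CPM in CKO), 0.31 in cholangiocyte-like nuclei (13.8 and 10.8 CPM in WT and 15 and 14.8 CPM in CKO) and 0.48 in macrophage-like nuclei (4.51 and 2.58 CPM in WT and 4.52 and 6.58 CPM in CKO). In CKO replicate 2 the values rest on 5, 1 and 2 UMIs, and free RNA was estimated to hold 26.5% of the Lamb1 counts in cholangiocyte-like and 99.9% in macrophage-like nuclei. In the larger of 2 cholangiocyte-like clusters taken alone, the groups overlapped. All 3 had an adjusted p over 0.9 by edgeR, and the difference between classes was not tested.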

How the results depend on the processing

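No member passed the threshold in any of the 5 classes as fitted, nor with DESeq2, RLE scaling, doublets kept, Leiden resolution 2, estimated free RNA subtracted (not run in hepatocyte-like nuclei) or sub-clusters left out (run in 3 classes). Mesenchymal-like nuclei gave 2 calls, Itga8 and Lama2, without the filter on low counts (all genes: 147 of 19188), and 1, Itga8, with barcodes of at least 2000 UMIs (36 of 7849). With 1 library left out in turn, which leaves a group with 1 library that is assumed to vary like the others, the calls ranged from 0 to 3 in hepatocyte-like, 0 to 1 in cholangiocyte-like, 0 to 3 in endothelial-like, 0 to 5 in mesenchymal-like and 0 to 2 in macrophage-like nuclei. In each fit that called a member, calls over all genes were also above those with every library kept, which were 18 in cholangiocyte-like nuclei and 0 in the other classes. Without CKO replicate 2 the members called were Itga8, Itgal, Itgb8, Lama2 and Lamb3 in mesenchymal-like (all genes: 342 of 10669), Itga8, Itgb2 and Lama3 in endothelial-like (407 of 12111), and Itgax and Nid1 in macrophage-like nuclei (419 of 13946). Without CKO replicate 1 they were Itgb6, Lama5 and Nid1 in hepatocyte-like (406 of 14170), Itgav in cholangiocyte-like (84 of 9292), Itga2 in endothelial-like (261 of 7277) and Itga8 in mesenchymal-like nuclei (225 of 7421), and without WT replicate 1 Itga8 in mesenchymal-like nuclei (29 of 7258). The 4 changes of sign were all seen with a library left out: Lamc3 (-2.91 to 0.03, 0.0285 without CKO replicate 1) and Nid1 (-1.61 to 0.62, -1.61 without CKO replicate 1) in cholangiocyte-like, Itga8 in endothelial-like (-1.26 to 0.60, 0.60 without WT replicate 1) and Lamb3 in mesenchymal-like nuclei (-1.80 to 0.04, 0.0371 without CKO replicate 1). The cause was not tested. Of the members called without CKO replicate 2, Itgal was at 28.9 CPM in CKO replicate 1 and 13.5 and 4.65 CPM in WT. Itgb2 was at 18.7 CPM there and 7.53 and 4.56 CPM in WT, and Nid1 changed by 0.75 within replicate 1. Estimated free RNA held 79.7%, 97.9% and 92.4% of the counts of these genes in those classes. Itga8 in endothelial-like nuclei lay between the WT libraries, and the other members called there were lower in CKO replicate 1. With the replicate number as a block, 0 members were called in each class, and Itga8 in mesenchymal-like nuclei changed by -1.60 (edgeR, adjusted p = 0.272). Labels do not pair the libraries; deviations of same-numbered libraries from their group means correlated at 0.067 to 0.262 over genes of a class.

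All barcodes had at least 1465 UMIs, so the planned limit of 1000 UMIs changed nothing. The limit of 2000 UMIs left cholangiocyte-like nuclei under 20 in 1 library and gave no value there, and the comparisons planned for dendritic-like, T or NK-like and B-like nuclei were not run because some libraries held fewer than 20 of them. Of 39 levels of members in their leading class, Lama3 in endothelial-like (20.5 CPM at 2000 UMIs), Lama4 in cholangiocyte-like and Lamc1 in mesenchymal-like nuclei moved by more than the SD over libraries under 1 alternative each. In 4 of the 5 classes, hepatocyte-like nuclei being the exception, CKO replicate 2 held the fewest UMIs, with 67371 in cholangiocyte-like nuclei.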

Other observations

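Over all kept barcodes of a library, named or not, Itga8 was at 26.2 and 12 CPM in WT and 6.92 and 3.92 CPM in CKO, Lama2 at 26.4 and 19.7 CPM in WT and 9.40 and 4.94 CPM in CKO, Itgb8 at 26.4 and 11.2 CPM in WT and 10.2 and 1.79 CPM in CKO and Lamc3 at 2.05 and 1.59 CPM in WT and 0.24 and 0.43 CPM in CKO. Both CKO libraries lay below both WT libraries for each of these 4 genes, which were chosen after their values were seen. In these sums, fewer cells of a type and less RNA per cell cannot be told apart. The TEAD motif GGAATG (or CATTCC on the other strand) was in the promoter windows of Itga10, Itgb1, Lamb3 and Nid1, 4 of the 24 members with a promoter, and in 14.7% of all promoters of that length.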
